A study of Mus musculus with 29 samples.

Results

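The genes described here are 37 genes of fatty acid oxidation, ketone body metabolism and the response to the nuclear receptor PPARalpha, out of 38124 genes in the deposited tables. They were found by name, as the rows whose Ensembl identifier carries a listed symbol. No measured value entered that match, but the list was drawn up with earlier results of these data known. By role they were the receptor gene Ppara, 8 genes of fatty acid binding, activation and the carnitine shuttle, 10 of mitochondrial beta-oxidation, 3 of electron transfer from the acyl-CoA dehydrogenases, 8 of peroxisomal oxidation, 2 of ketone bodies and 5 other PPARalpha targets and uncoupling proteins. All 37 had enough reads to be tested in muscle and 36 in liver, where Ucp3 had too few.

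PPARalpha is a nuclear receptor that is activated by fatty acids and binds DNA together with the retinoid X receptor. In the fasting liver it is known for switching on genes that import fatty acids into mitochondria and peroxisomes, shorten them step by step to acetyl-CoA and turn the product into ketone bodies for export. Skeletal muscle burns both fatty acids and ketone bodies and makes none of the latter in quantity, so several steps of the pathway have a liver form and a muscle form.

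RNA from the liver and the whole hindlimb muscle of 16 male C57BL/6 mice was sequenced by the authors. The animals were 14 weeks old at purchase and began their diets at 4 months of age, and the labels name no transgene or deletion in any group. Control mice were fed 95% of what they ate freely, or 13.6 kcal per day, while the soy, fish and lard mice, named for the fat in the labels, were held at 60%, or 8.6 kcal per day. The study asked, by its title, whether omega-3 fat partly undoes what long-term restriction does to metabolic genes. In liver there were 4 libraries for each of soy, fish and lard and 3 for control, and in muscle 4 for each of control and lard and 3 for each of soy and fish. The labels state that the authors removed 2 libraries, a control liver (mouse 1071) and a fish muscle (mouse 1125), on clustering and RNA quality, and those are not analysed here. Each library of a tissue came from a different mouse, and mice are named below by the numbers in the labels. Values per library are reads on exons per 1000000 exon reads (CPM), which compare a gene between libraries. Levels of different genes are compared only as reads per kilobase of exon, scaled to library size (RPKM), the authors' deposited unit. In whole tissue, fewer cells of a type and less RNA per cell cannot be told apart.

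Depth was 11315231 to 27106865 exon reads per library. The summed level of 8 hepatocyte markers was 97069 to 160348 CPM in livers and 176 to 590.5 CPM in muscles, and 8 muscle fibre markers were at 128103 CPM or more in every muscle. A few libraries stood apart. The soy livers of mice 1073 and 1159 had 69 and 54.5 on the first principal component against -18.2 to -2.01 in the other livers. In those 2 soy livers 5.47% and 5.41% of gene reads lay outside exons, against 7.90 to 8.92% in the other livers, and the ribosomal protein genes had a mean log2 CPM of 8.08 and 8.01 against 6.92 to 7.23. The part of these differences in the soy results was not tested. Among muscles, control mice 1071 and 1120 had 59.9 and 68.1 against -21.6 to 10.6, with neutrophil markers at 266 and 1136 CPM against at most 2.54 elsewhere. The fish liver of mouse 1123 had muscle fibre markers at 3141 CPM against 178 to 375 in the other livers. Values without these libraries are given beside most named diet results that draw on them.

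Control liver and control muscle held different members at the same steps of the pathway. Of the 37 genes, 6 were higher and 26 lower in muscle by edgeR's quasi-likelihood test at an adjusted p under 0.05, where 73.6% of all genes differed, 38.0% being higher and 35.5% lower. The 6 higher genes were Cpt1b, Crat, Fabp3, Oxct1, Pdk4 and Ucp3. The median log2 difference, muscle minus liver, was -1.38 over the 37 and 0.05 over all genes tested. All 8 peroxisomal genes were lower in muscle, at a median of -3.91, while the 10 mitochondrial genes had a median of -0.59.

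**Figure D1:**
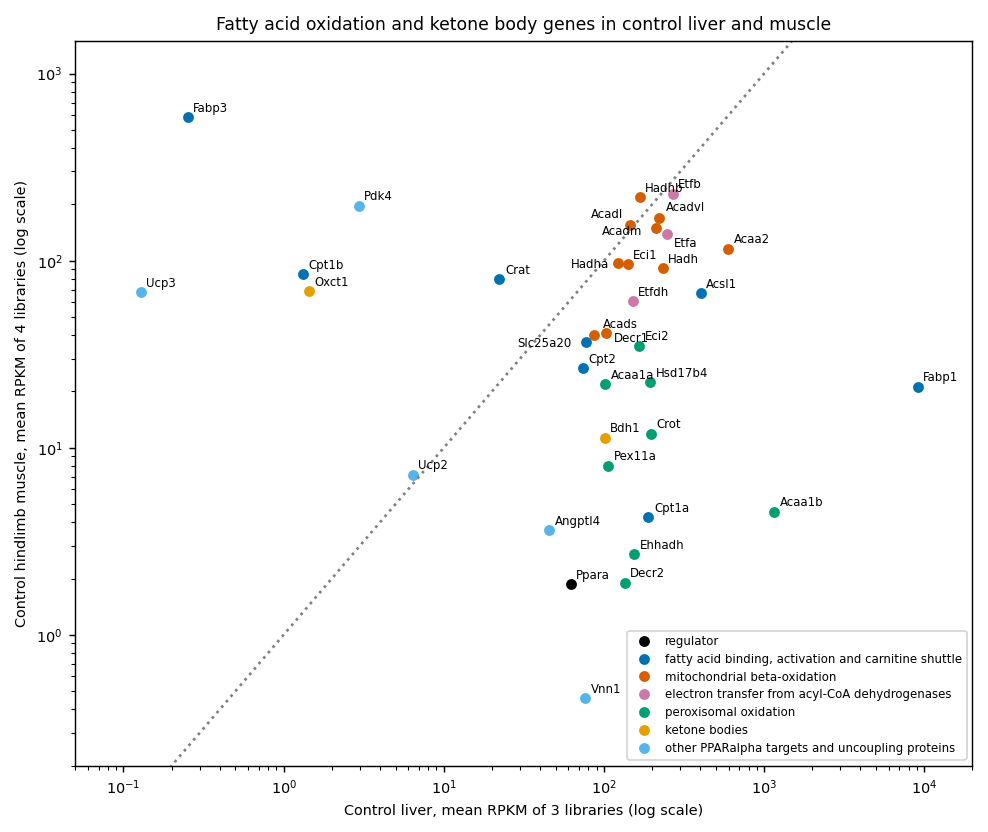
Mean RPKM of each of the 37 genes in the 3 control livers (horizontal, log scale) and the 4 control muscles (vertical, log scale), coloured by role, with the dotted line marking equal levels. Fabp3, Pdk4, Ucp3, Cpt1b, Oxct1 and Crat lie above the line, and Fabp1, Acaa1b and the other peroxisomal genes lie to the right. Most mitochondrial genes lie nearer to the line than these, but Acaa2, at 599 RPKM in liver and 116 in muscle, lies to the right.

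The receptor gene itself was far higher in liver. Ppara stood at 190.2, 249.8 and 276 CPM in the control livers and at 2.15, 9.19, 4.24 and 12.5 CPM in the control muscles. Every control liver was above every control muscle, and the log2 difference was -5.11 ± 0.56 (SE; edgeR adjusted p = 6.18e-09). The lowest muscle value was that of mouse 1071.

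Carriers and importers came in tissue forms. Fabp1 binds fatty acids in the cytosol of liver cells, and it was the most abundant member there per length, at 9101 ± 1178 RPKM (SD, n = 3), ahead of Acaa1b at 1161 ± 209.5 RPKM. Its control values were 4715, 6113 and 5619 CPM in liver and 18, 14.8, 8.27 and 8.87 CPM in muscle, a log2 difference of -8.76 ± 0.47 (edgeR adjusted p = 3.59e-15). Fabp3, the form of heart and muscle, led the members in muscle at 585 ± 267 RPKM (SD, n = 4) and was at 0.253 ± 0.0485 RPKM in liver. Of its exon reads 49.7% mapped to a single place, so its level is less certain than that of most members. Per library, Fabp1 exceeded Fabp3 by a median RPKM ratio of 13681 in liver (range 627 to 45998). Fabp3 exceeded Fabp1 by a median ratio of 24.8 in muscle (range 9.89 to 64.1). With Fabp3 so low in liver, the liver ratio is imprecise.

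The gate to the mitochondrion switched form in the same way. Cpt1a, the liver form of the outer membrane carnitine palmitoyltransferase that sets the pace of fatty acid entry, was at 794, 863 and 1012 CPM in control livers and 17.6, 17, 17.3 and 25.8 CPM in control muscles, a log2 difference of -5.52 ± 0.20 (edgeR adjusted p = 1.72e-18). Cpt1b, the muscle form, was at 5.24, 3.57 and 5.70 CPM and 245, 318, 367 and 271 CPM in the same order, a log2 difference of 5.95 ± 0.26 (edgeR adjusted p = 9.28e-17). The groups did not overlap for either gene. On the RPKM scale Cpt1a was above Cpt1b in all 15 livers, by 56.9 to 219 times, and Cpt1b was above Cpt1a in all 14 muscles, by 13.5 to 28.3 times. The inner membrane steps had no such pair, and Slc25a20, which carries acylcarnitine across, and Cpt2, which releases acyl-CoA inside, were lower in muscle by log2 differences of -1.12 and -1.52. Crat, which buffers short-chain acyl-CoA as carnitine esters, was higher in muscle (1.79 ± 0.27), and Acsl1, which activates long-chain fatty acids, was lower (-2.63 ± 0.30).

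The beta-oxidation enzymes of mitochondria differed by less. Of these 10 genes, 7 were lower in muscle and 0 higher, with log2 differences from -2.44 for the thiolase Acaa2 to -0.43 for the very long-chain dehydrogenase Acadvl. The medium-chain dehydrogenase Acadm, among the 7 at -0.55 ± 0.18, no longer passed without both control muscles that stood apart (-0.44, edgeR adjusted p = 0.0673). Among the 7, Acadvl also lost its call without muscle control 1071 or 1121 or liver control 1120 or 1121 (edgeR adjusted p = 0.0646 to 0.0956), and the enoyl-CoA isomerase Eci1 without liver control 1120 or 1121 or muscle control 1121 (0.0632 to 0.0871). The long-chain dehydrogenase Acadl and Hadha and Hadhb did not pass, at 0.03 ± 0.16, -0.38 ± 0.19 and 0.32 ± 0.22. Hadha passed as lower in muscle without both soy livers that stood apart (-0.39, edgeR adjusted p = 0.0460) and in 4 of the fits that left out 1 library (edgeR adjusted p = 0.0343 to 0.0468). Hadhb passed as higher without muscle control 1071 (0.48, edgeR adjusted p = 0.0490). Hadha and Hadhb encode the alpha and beta subunits of the trifunctional protein of long-chain oxidation, and 21.6% of the Hadhb reads mapped to a single place. Per length Hadhb exceeded Hadha in every library, by a median of 1.38 times in liver (range 1.23 to 1.60) and 2.28 times in muscle (range 1.73 to 2.44). Of the electron transfer genes, Etfa (-0.89 ± 0.16) and Etfdh (-1.37 ± 0.21) were lower in muscle. Etfb did not pass at -0.28 ± 0.26, and without both control muscles that stood apart it did (-0.79, edgeR adjusted p = 0.0153).

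Peroxisomal genes marked the liver. Decr2, the peroxisomal dienoyl-CoA reductase for unsaturated fatty acids, was at 319, 313 and 331 CPM in control livers and 4.81, 3.15, 5.87 and 3.81 CPM in control muscles (-6.19 ± 0.22, edgeR adjusted p = 1.72e-18). Ehhadh, the peroxisomal bifunctional enzyme, was at 498, 418 and 608 and 6.44, 12.5, 7.21 and 8.46 CPM (-5.87 ± 0.31, edgeR adjusted p = 3.36e-15). Hsd17b4, the other multifunctional enzyme of that organelle, was at 515, 551 and 635 and 53.7, 63.2, 70.8 and 68.5 CPM (-3.16 ± 0.16, edgeR adjusted p = 1.92e-15). Muscle values were below liver values in every pair of control libraries for these 3 genes. The peroxisomal thiolase gene pair was uneven: Acaa1b stood 8.77 times above Acaa1a per length in the median liver and Acaa1a 4.87 times above Acaa1b in the median muscle. These near-identical genes share reads, with 56.6% and 66.5% of the reads of Acaa1a and Acaa1b mapping to a single place, so the split between them is uncertain.

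The ketone body genes and the fuel switches divided by tissue. Oxct1, the transferase that lets tissues other than liver use ketone bodies, was at 3.76, 6.11 and 6.73 CPM in control livers and 180.4, 309.5, 324 and 214 CPM in control muscles (5.51 ± 0.33, edgeR adjusted p = 4.98e-14). Bdh1, which interconverts the 2 main ketone bodies, was the reverse at -3.23 ± 0.42. Pdk4, the kinase that turns off pyruvate dehydrogenase, and Ucp3, the muscle uncoupling protein homologue, were higher in muscle at 5.99 ± 0.64 and 8.99 ± 0.78. Vnn1, a pantetheinase and PPARalpha target, was at 171, 181 and 254 CPM in liver and 1.82, 0.537, 0.566 and 1.80 CPM in muscle (-7.40 ± 0.47, edgeR adjusted p = 1.52e-13). Angptl4, a secreted inhibitor of lipoprotein lipase, was lower in muscle (-3.69 ± 0.37). Ucp2, an uncoupling protein homologue of many tissues, did not pass (0.07 ± 0.36), and its sign turned when both control muscles that stood apart were left out (-0.83, edgeR adjusted p = 0.0246).

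PPARalpha and its partner bind a direct repeat of AGGTCA with 1 base between the copies, so 2 copies of AGGNCA with 1 base of any kind between them were searched on both strands of the RefSeq promoter windows (GRCm38.p6; 250 bases before to 50 after a start). Windows were found for 30 member genes, 32 windows in all. The motif was present in 125 of 32851 windows of the genome, or 0.381%, and in 1 of the 32, that of Fabp1, where it begins 67 bases before the start on the opposite strand. The stricter form with both copies AGGTCA, which is contained in the wider motif, was in 0.0396% of all windows and in 0 of the 32. The single copy AGGTCA was in 16.3% of all windows and in 15.6% of the 32. A match is a description of letters and not of binding. The stretches shown are those before the deposited gene models, on the strand of the gene. That of Fabp1 (chr6:71199629-71199826, plus strand) carries the match in capitals, which read AGGCCATAGGTCA on the opposite strand. Those of Acads (chr5:115119347-115119596, minus strand) and Ucp2 (chr7:100493108-100493336, plus strand) are shown because these were the members that passed in muscle under restriction, and neither holds the motif. The stretch between Hadha and Hadhb (chr5:30155163-30155247, plus strand) is shown because these genes are transcribed away from each other with 228 bases common to their upstream windows.
Fabp1: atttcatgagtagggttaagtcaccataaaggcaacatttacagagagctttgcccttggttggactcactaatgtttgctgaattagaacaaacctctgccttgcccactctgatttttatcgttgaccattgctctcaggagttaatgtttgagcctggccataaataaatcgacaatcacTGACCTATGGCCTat
Acads: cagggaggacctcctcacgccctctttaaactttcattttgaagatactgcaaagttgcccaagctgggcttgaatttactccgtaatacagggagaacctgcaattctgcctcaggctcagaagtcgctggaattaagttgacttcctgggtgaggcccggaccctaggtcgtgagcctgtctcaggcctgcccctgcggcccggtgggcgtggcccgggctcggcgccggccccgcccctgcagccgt
Ucp2: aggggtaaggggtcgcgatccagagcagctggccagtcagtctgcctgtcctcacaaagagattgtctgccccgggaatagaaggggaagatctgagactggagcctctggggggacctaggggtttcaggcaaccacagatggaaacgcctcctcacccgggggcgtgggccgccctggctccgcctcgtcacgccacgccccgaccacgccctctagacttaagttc
Hadha and Hadhb: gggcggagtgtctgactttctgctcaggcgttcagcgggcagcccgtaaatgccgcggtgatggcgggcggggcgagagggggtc

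In liver, restriction left no member past the threshold. Over the 3 restricted diets against control, 0 of 36 members passed edgeR's test, where 1.08% of all genes did; 9 members were under an unadjusted p of 0.05 (background 11.7%), 8 of them lower (background 6.54%), and DESeq2 called 1 (Cpt2; background 2.65%). The 36 members had a median log2 difference of -0.11 against 0.01 for all genes, with 25 below 0 (background 47.8%). The mitochondrial genes sat near 0 (median -0.03) and the carrier and carnitine shuttle genes lower (-0.28). The peroxisomal genes had medians of -0.18 on soy, -0.04 on fish and -0.30 on lard. The 3 restricted diets share the same 3 control livers, so their differences from control are not independent. The restricted diets also differ in fat, so they cannot all share the fat of the control diet, which is not stated here. Differences from control, in either tissue, can thus hold fat as well as calories, and the part of each was not tested.

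Cpt2 had the smallest p. Its control values were 196, 181 and 194 CPM, against 118 to 166 (median 145) in the 12 restricted livers, a log2 difference of -0.34 ± 0.10 (edgeR adjusted p = 0.119). All 12 restricted livers were below all 3 controls. Such separation was seen for Cpt2 and Bdh1, 2 of 36 members, where 1.88% of all genes were separated downward. Cpt1a was at 794, 863 and 1012 CPM in control and 377 to 875 (median 621) in restricted livers (-0.44 ± 0.13, edgeR adjusted p = 0.155), and its groups overlapped through the lard livers of mice 1102 and 1101. Without both soy livers that stood apart, Cpt2 (-0.36, edgeR adjusted p = 0.0305) and Bdh1 (-0.30, edgeR adjusted p = 0.0353) passed, and Cpt1a was at -0.37, edgeR adjusted p = 0.0719.

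**Figure D2:**
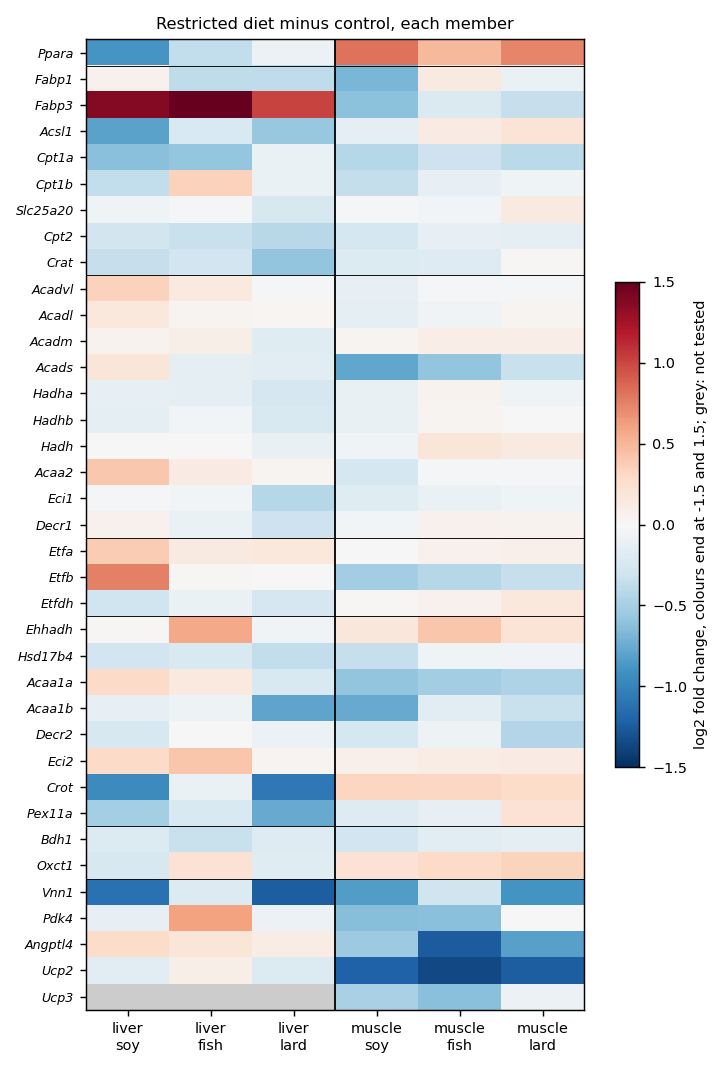
Log2 fold change of each restricted diet against control for each of the 37 genes, in liver (left) and muscle (right), ordered by role with lines between roles; colours end at -1.5 and 1.5 and grey marks Ucp3, not tested in liver. In liver Crot and Vnn1 are lower on soy and lard and close to 0 on fish, and in muscle Ucp2 is lower on all 3 diets.

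Ppara did not pass in any liver comparison. Its values were 190.2, 249.8 and 276 CPM in control, 193, 32.7, 218 and 46.6 in soy, 207, 184, 172 and 204 in fish and 169, 240.3, 212 and 226 in lard livers. The low soy values were those of mice 1073 and 1159, the livers that stood apart; the other soy livers were within the range of the controls. The difference of soy from control was -0.88 ± 0.44 with all soy livers and -0.17 without those.

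On soy, 0 of 36 members passed edgeR's test (background 1.17%), 9 were under an unadjusted p of 0.05 (background 22.3%), 4 higher and 5 lower, and DESeq2 called 4 (Cpt1a, Crot, Etfa and Vnn1; background 6.77%). Cpt1a was at 692, 377, 602 and 433 CPM (-0.63 ± 0.16, edgeR adjusted p = 0.0605), with the livers of mice 1073 and 1159 the lowest. Crot, the carnitine octanoyltransferase that hands shortened acyl groups from peroxisome to mitochondrion, was at 889.7, 477 and 549 CPM in control and 434, 165, 284 and 301 in soy livers (-0.95 ± 0.27, edgeR adjusted p = 0.0778). No soy liver reached the lowest control for either gene, and without both livers that stood apart Cpt1a was -0.40 (edgeR adjusted p = 0.225) and Crot -0.75 (edgeR adjusted p = 0.267). In all, 9 members were separated downward, where 11.3% of all genes were, and 0 upward (background 2.78%). Etfb, the beta subunit of the electron transfer flavoprotein, was at 238, 534, 235 and 504 CPM in soy and 250.1, 249.2 and 262 in control livers, and the 2 high values were again those of mice 1073 and 1159. Its difference from control was 0.76 ± 0.27 with those libraries and -0.04 without them.

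On fish, 0 of 36 passed edgeR's test (background 0.383%), 5 were under an unadjusted p of 0.05 (background 8.93%), and DESeq2 called 2 (Cpt1a and Fabp3; background 1.29%). Cpt1a was at 624, 619, 598 and 608 CPM, the tightest of the 4 diets and below all controls (-0.58 ± 0.16, edgeR adjusted p = 0.182); without both soy livers that stood apart it passed (-0.59, edgeR adjusted p = 0.0279). Fabp3 was at 0.445, 7.85, 0.914 and 0.208 CPM in fish and 0.213, 0.275 and 0.192 in control livers (3.26 ± 1.08, edgeR adjusted p = 0.333). Its high value was that of mouse 1123, whose liver library also had the high muscle fibre markers; that library held Ucp3 at 4.97 CPM against at most 0.623 in the other livers. The part of muscle RNA in these values was not tested. Without that library Fabp3 was 1.10 (edgeR adjusted p = 0.871). Pdk4 was at 7.44, 27.9, 8.10 and 26.8 CPM in fish and 6.80, 11.4 and 15.4 in control livers, high in mice 1123 and 1125. The members separated upward numbered 4 (background 7.17%) and downward 3 (background 5.19%).

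On lard the median of the members lay further below 0 than on fish, where it was -0.03. Of 36 members 0 passed edgeR's test (background 0.508%), 6 were lower and 0 higher at an unadjusted p under 0.05 (background 5.43% and 4.56%), and DESeq2 called 3 (Cpt2, Crot and Vnn1; background 2.14%). The median log2 difference was -0.19 against 0.0046 for all genes, and 29 members were below 0 (background 49.2%). Crot was at 245, 397, 235 and 247 CPM in lard livers (-1.07 ± 0.27, edgeR adjusted p = 0.0927) and Cpt2 at 118, 157, 126 and 136 CPM (-0.41 ± 0.12, edgeR adjusted p = 0.141). Every lard liver was below every control for both. Downward separation held for 10 members where 12.7% of all genes had it, and upward separation for 1, Fabp3 (background 3.32%). Both soy livers that stood apart are in neither group, but they enter this fit through the count filter, the scaling and the spread. Without them Crot (-1.08, edgeR adjusted p = 0.0360) and Cpt2 (-0.42, edgeR adjusted p = 0.0399) passed. Without control liver 1121, which was the highest control in 29 of 36 members, 23 members were below 0 and the median was -0.10.

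Between the fish and lard diets most members leaned to the same side in liver without passing the test. Fish against lard left 0 of 36 past edgeR's test (background 0.203%), 5 higher and 1 lower at an unadjusted p under 0.05 (background 5.58% and 4.39%), and 1 called by DESeq2 (Crot; background 1.28%). In all, 32 of 36 members were above 0, at a median of 0.21, against 51.3% of all genes and a median of 0.006. All 10 mitochondrial genes (median 0.15) and all 8 peroxisomal genes (median 0.45) were above 0. The 4 below 0 were Bdh1, Cpt1a, Etfa and Ppara. Among the 5 higher was Fabp3, whose high fish value was that of mouse 1123, the liver with the high muscle fibre markers. The part of muscle RNA in that value was not tested. All members were read in the same 8 livers, so these counts describe those libraries and have no test.

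Crot and Cpt1a had the smallest p, on opposite sides of 0. Crot was at 541, 698, 698 and 491 CPM in fish against 245, 397, 235 and 247 in lard livers, with no overlap (0.97 ± 0.25, edgeR adjusted p = 0.153). Cpt1a ran the other way, at 624, 619, 598 and 608 against 671, 875, 772 and 799 CPM, again with no overlap (-0.48 ± 0.15, edgeR adjusted p = 0.275). Vnn1, Ehhadh and Pex11a, which belong to peroxisomes or are PPARalpha targets, were chosen for naming after their values were seen. Vnn1 was at 179, 143, 182 and 215 against 50.7, 139, 58.1 and 73.8 CPM (1.04 ± 0.34, edgeR adjusted p = 0.294). Ehhadh was at 547, 707, 977 and 863 against 324, 579.9, 459.6 and 468 CPM (0.63 ± 0.25, edgeR adjusted p = 0.419), where the lowest fish liver lay below the lard liver of mouse 1102. Pex11a, which drives peroxisome division, was at 210.0, 220.1, 239.6 and 249.6 against 138, 177, 97.9 and 170.3 CPM without overlap (0.53 ± 0.23, edgeR adjusted p = 0.459). In all, 14 members were separated upward (background 12.6%) and 1 downward, Cpt1a (background 1.49%).

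**Figure D3:**
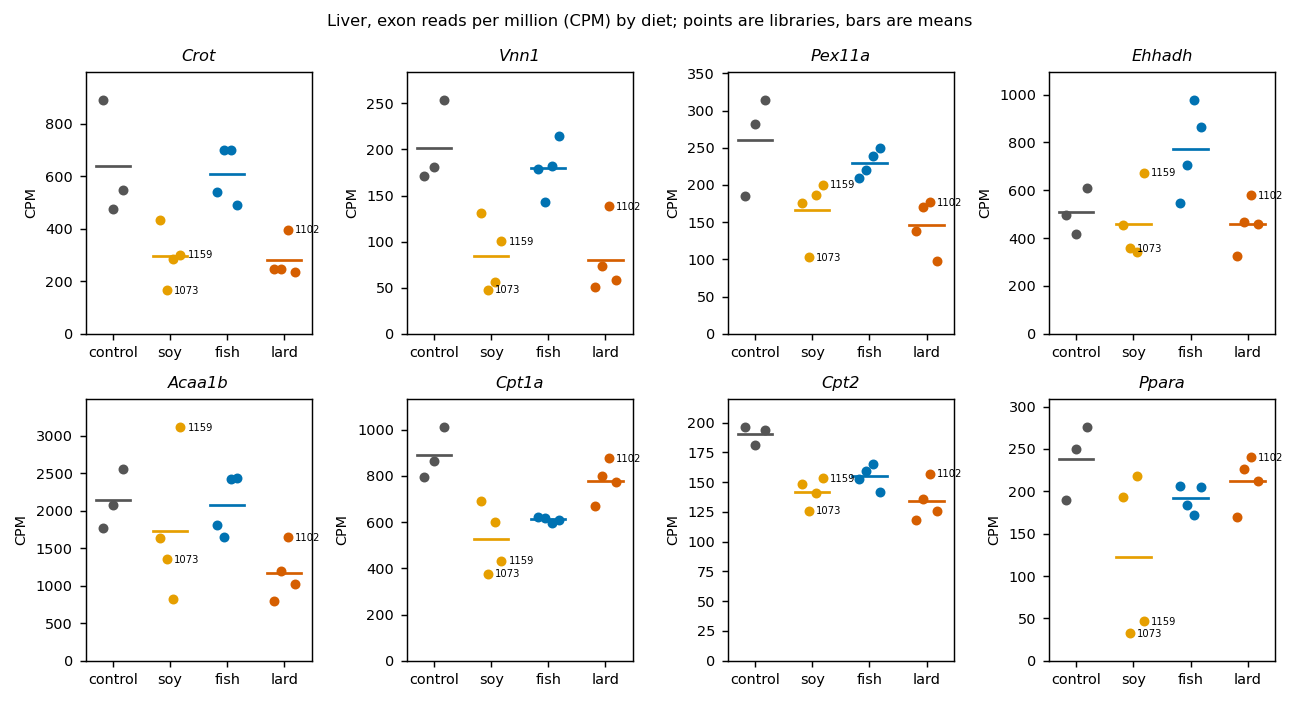
CPM of 8 members in each liver library by diet; points are libraries, bars are group means, and numbers name the soy livers that stood apart and the lard liver of mouse 1102. Crot, Vnn1 and Pex11a are higher in every fish than in every lard liver, Cpt1a is lower, and the low Ppara values are the soy livers of mice 1073 and 1159.

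The lard group was not uniform. The liver of mouse 1102 was the highest of the 4 lard livers in 30 of 36 members, for example with Acsl1 at 1831 CPM against 952 to 1058 in the other lard livers. Without it, 32 of 36 members were above 0 in fish against lard and the median was 0.30. Over all the fits that left out 1 liver, the number above 0 was 28 to 33. Separation was counted on CPM without TMM scaling, and over all genes it was uneven, with 12.6% upward and 1.49% downward in fish against lard. In lard against control, 12.7% were separated downward and 3.32% upward. The hepatocyte marker sum was 97069 to 112510 CPM in control, 138556 to 160348 in soy, 111992 to 138770 in fish and 126492 to 151881 in lard livers. Its part in the separation was not tested. Etfa was higher in every fish than in every lard liver as CPM, while its log2 difference was -0.01 after scaling.

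**Figure D4:**
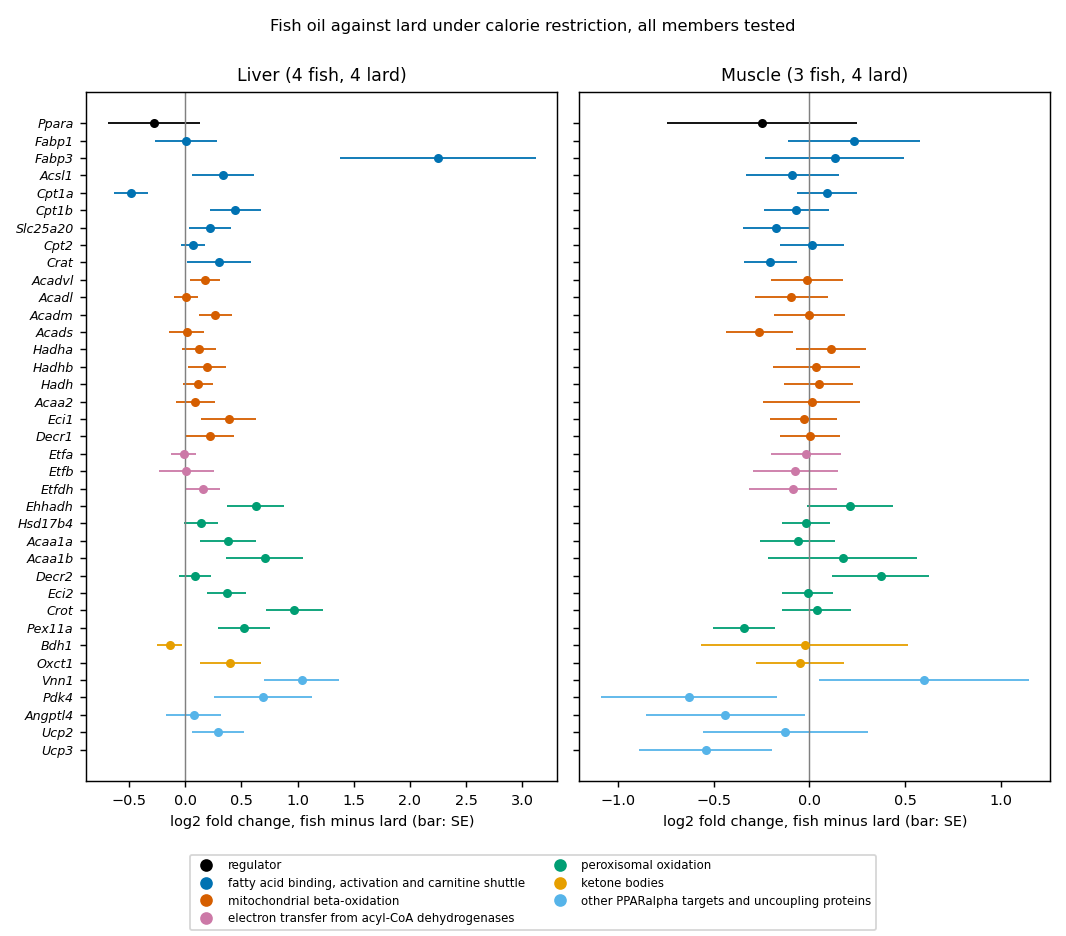
Log2 fold change of fish against lard under restriction for each member, in liver (left) and muscle (right), with bars of 1 SE and colours by role; the horizontal scales differ. In liver 32 of 36 points lie above 0, and in muscle 14 of 37.

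Fish and lard were each set against soy as well, and the soy livers that stood apart enter both. Fish against soy left 0 of 36 past edgeR's test (background 0.0938%), 5 higher and 2 lower at an unadjusted p under 0.05 (background 9.31% and 13.8%), and 2 called by DESeq2 (Crot and Etfb; background 6.36%). The smallest p belonged to Crot (0.85 ± 0.25, edgeR adjusted p = 0.109) and Cpt1b (0.72 ± 0.23, edgeR adjusted p = 0.119), the latter at 6.17, 8.45, 5.09 and 5.58 CPM in fish and 3.44, 2.15, 4.33 and 3.68 in soy livers. The 8.45 CPM was in the liver of mouse 1123, which held the high muscle fibre markers, and Cpt1b is the muscle form. The part of muscle RNA in it was not tested. Without that library Cpt1b was 0.56 (edgeR adjusted p = 0.237). When the soy livers that stood apart were left out, Crot was 0.65 and Cpt1b 0.61 (edgeR adjusted p = 0.512 for Crot, and Cpt1b did not pass either). Every fish liver exceeded every soy liver for 6 members (background 9.34%). Lard against soy left 0 past edgeR's test (background 0.0%), 1 higher and 3 lower at an unadjusted p under 0.05 (background 6.08% and 11.2%), and 2 called by DESeq2 (Cpt1a and Etfb; background 1.18%). Cpt1a was 0.53 ± 0.15 and Etfb -0.75 ± 0.25, each at an edgeR adjusted p of 0.229. The low soy values of Cpt1a were those of mice 1073 and 1159, and leaving both out gave 0.30 (edgeR adjusted p = 0.790). Etfb was then 0.04 against soy on lard and 0.06 on fish, so its difference rested on those libraries. Only Acadvl was separated between lard and soy, downward (background 2.24%). In lard against soy 27 of 36 members were below 0 (background 50.3%), at a median of -0.14 against -0.0022 for all genes. In fish against soy 21 of 36 were above 0 (background 51.8%), at a median of 0.05 against 0.02.

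In muscle, 2 members fell under restriction. Acads, the short-chain acyl-CoA dehydrogenase of mitochondria, and Ucp2 fell over the 3 restricted diets against control by edgeR's test, 2 of 37 members where 2.33% of all genes fell, and 0 rose (background 1.16%). At an unadjusted p under 0.05 there were 6 lower and 0 higher (background 15.5% and 11.0%). DESeq2 called 3 (background 9.67%), adding the peroxisomal thiolase Acaa1a. The share of members called was thus close to that of all genes. The median log2 difference was -0.11 against -0.02 for all genes.

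Acads was at 72.9, 69.7, 111 and 63.6 CPM in the control muscles, in the order of mice 1071, 1095, 1120 and 1121. It was at 45.7, 53.5 and 42.8 CPM on soy, 63.6, 51.7 and 45.9 on fish and 69.5, 59, 66.8 and 47.8 on lard. Control and restricted values overlapped through the lard muscles, and the highest value was that of mouse 1120. The log2 difference was -0.57 ± 0.13 (edgeR adjusted p = 0.0432), and by diet it was -0.77 on soy, -0.59 on fish and -0.33 on lard. Ucp2 was at 26.8, 15.1, 74.3 and 19.96 CPM in control muscles, at 9.38, 21 and 14.6 on soy, 11.9, 15.2 and 13 on fish and 20.8, 9.43, 13.1 and 11.3 on lard, a log2 difference of -1.27 ± 0.31 (edgeR adjusted p = 0.0466). The control muscle of mouse 1120 was far above all others for Ucp2, and the remaining controls overlapped the restricted muscles.

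Both calls rested on the control muscles that stood apart. Without mice 1071 and 1120, Acads was -0.33 (edgeR adjusted p = 0.434) and Ucp2 -0.34 (edgeR adjusted p = 0.671). Those 2 libraries held neutrophil markers at 266 and 1136 CPM and red cell markers at 1982 and 7658 CPM, against at most 2.54 and 219 to 1082 CPM in the other muscles. The part of blood cell RNA in the levels of Ucp2, which is known to be abundant in immune cells, was not tested. Without mouse 1120 alone, Acads was -0.41 (edgeR adjusted p = 0.147) and Ucp2 -0.62 (edgeR adjusted p = 0.205), and without mouse 1071 alone Acads was -0.57 (edgeR adjusted p = 0.114) and Ucp2 -1.33 (edgeR adjusted p = 0.119). Both calls held without control mouse 1095, control mouse 1121 or soy mouse 1073, that of Acads alone held without fish mouse 1067, and neither held when any other muscle library was left out. With the library number in the labels as a term, Acads was -0.62 and Ucp2 -1.22 and neither passed (edgeR adjusted p = 0.0513 and 0.0676).

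**Figure D5:**
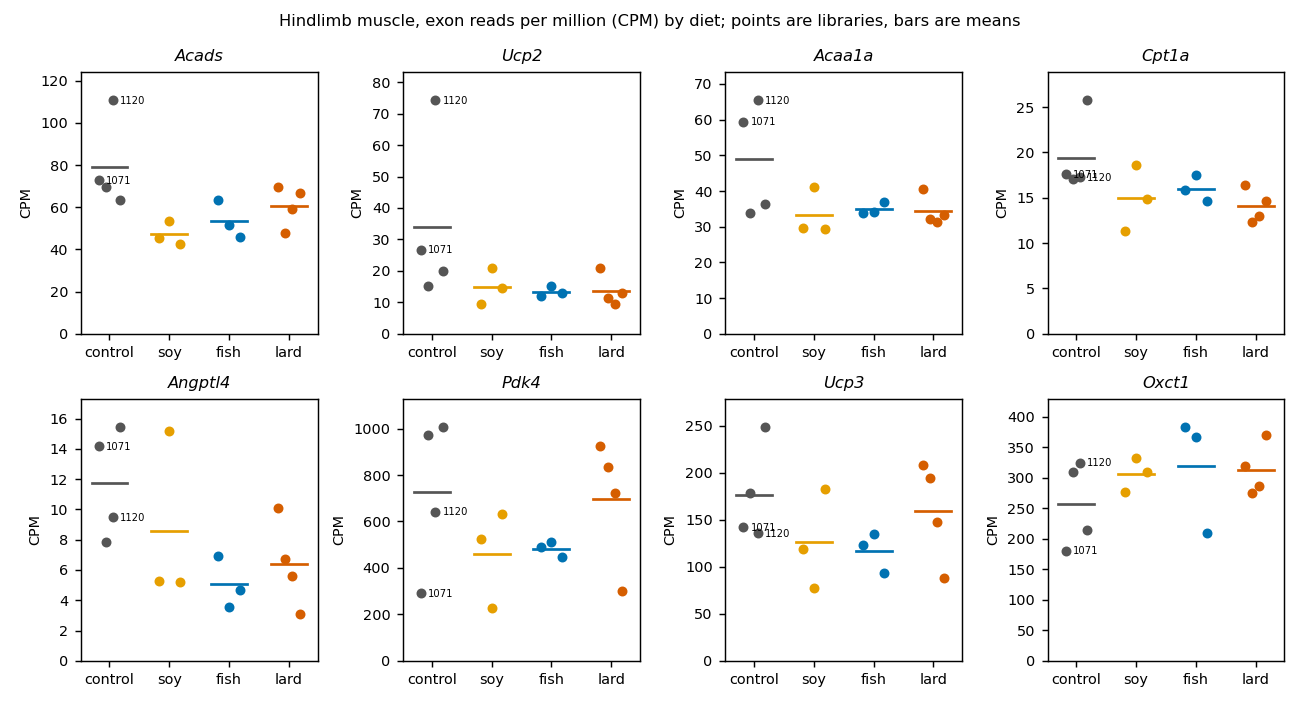
CPM of 8 members in each muscle library by diet; points are libraries, bars are group means, and numbers name the control muscles that stood apart. The control muscle of mouse 1120 is highest for Acads, Ucp2 and Acaa1a, and the ranges of the diets overlap for Pdk4 and Oxct1. For Ucp3 every fish muscle is below every control muscle.

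Each restricted diet taken alone left no muscle member past edgeR's test. On soy 0 of 37 passed (background 0.0%), with 6 lower and 0 higher at an unadjusted p under 0.05 (background 9.53% and 7.91%) and 1 called by DESeq2 (Acads; background 1.85%). The smallest p belonged to Acads (-0.77 ± 0.18, edgeR adjusted p = 0.137) and Acaa1a (-0.59 ± 0.20, edgeR adjusted p = 0.211). On fish 0 passed (background 0.00763%), with 4 lower and 0 higher at an unadjusted p under 0.05 (background 9.99% and 8.38%) and 2 called by DESeq2 (Acads and Ucp2; background 3.01%), which also had the smallest p by edgeR (-0.59 ± 0.18 and -1.36 ± 0.44, adjusted p = 0.149 and 0.162). On lard 0 passed (background 0.0%), with 4 lower and 0 higher at an unadjusted p under 0.05 (background 10.4% and 6.91%) and 0 called by DESeq2 (background 2.43%). Ucp2 (-1.23 ± 0.39) and Cpt1a (-0.41 ± 0.15) had the smallest p there (edgeR adjusted p = 0.187 and 0.208). All 3 comparisons share the 4 control muscles. Without the control muscles that stood apart, Acads was -0.54 and Acaa1a -0.13 on soy, Acads -0.36 and Ucp2 -0.43 on fish, and Ucp2 -0.30 and Cpt1a -0.54 on lard, with 0 members past edgeR's test on any diet. Separated members numbered 1 upward (Crot) and 3 downward on soy (background 5.2% and 3.29%). On fish 3 were separated downward, Acads, Angptl4 and Ucp3 (background 4.99%), and on lard 1, Cpt1a (background 4.65%).

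Other muscle members varied widely from mouse to mouse. Ppara was at 2.15, 9.19, 4.24 and 12.5 CPM in control, 6.69, 8.88 and 21.8 in soy, 11.3, 12.2 and 6.44 in fish and 14.5, 7.93, 11.1 and 11.1 in lard muscles, with all groups overlapping (0.68 ± 0.40 for restricted against control, edgeR adjusted p = 0.294; without the control muscles that stood apart, 0.04, edgeR adjusted p = 0.983). Pdk4 ranged over 290.1 to 1007 CPM in control and 229 to 925 CPM in restricted muscles, and Bdh1 over 16.1 to 62.1 and 16.1 to 68.9 CPM. The control muscle of mouse 1071 gave the lowest Ppara, Pdk4, Oxct1 and Bdh1 of its group, and it was the lowest control in 21 of 37 members while mouse 1120 was the highest in 23.

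Between the fats, no member passed edgeR's test in muscle. In fish against lard, 0 of 37 passed edgeR's test (background 0.0%), 0 were under an unadjusted p of 0.05 (background 4.13%) and DESeq2 called 0 (background 0.107%). The smallest p belonged to Pex11a (-0.34 ± 0.16) and Ucp3 (-0.54 ± 0.35), each at an edgeR adjusted p of 1. The members above 0 numbered 14 (background 53.3%), at a median of -0.02 against 0.01 for all genes, and no member was separated in either direction (background 8.87% and 1.63%). Among the fish muscles, that of mouse 1124 was the lowest in 28 of 37 members and the highest in 2. For example, it held Hadha at 315 CPM, against 503 and 496 in the other fish muscles and 336 to 422 in lard muscles. Its part in these counts was not tested. In every fit that left out 1 muscle library, 0 members passed. In fish against soy 0 passed (background 0.0%) and DESeq2 called 0 (background 0.0%), with Fabp1 at 0.81 ± 0.38 and Hsd17b4 at 0.27 ± 0.13 having the smallest p; 1 member was under an unadjusted p of 0.05 (background 2.2%). In lard against soy 0 passed (background 0.0%) and DESeq2 called 0 (background 0.0%), with Pex11a at 0.41 ± 0.16 and Acads at 0.44 ± 0.18; 3 members, all higher, were under an unadjusted p of 0.05 (background 1.39%). In lard against soy 31 of 37 members were above 0 (background 47.3%), at a median of 0.14 against -0.01 for all genes, and in fish against soy the median was 0.10 against -1.3e-05. The comparisons share the 3 soy muscles.

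The response of a member could differ between the tissues, and this was tested as an interaction in a fit of all 29 libraries. For restriction against control, 0 of 37 members passed edgeR's test (background 0.657%), 6 were under an unadjusted p of 0.05 (background 18.3%) and DESeq2 called 1 (Crot; background 3.14%). Crot was at -0.71 in restricted against control livers and at 0.30 in muscles, a difference of 1.002 ± 0.28 (edgeR adjusted p = 0.0895, DESeq2 adjusted p = 0.0286). Ucp2 differed by -1.16 ± 0.42 (edgeR adjusted p = 0.155). Without both control muscles that stood apart these differences were 0.82 and -0.26 (edgeR adjusted p = 0.712 and 0.976). For fish against lard, 0 passed (background 0.0424%), 5 were under an unadjusted p of 0.05 (background 7.45%) and DESeq2 called 0 (background 0.332%). The smallest p belonged to Ucp3 (-3.34 ± 0.99, edgeR adjusted p = 0.303), and to Crot (-0.96 ± 0.34, edgeR adjusted p = 0.484). Without the fish liver of mouse 1123, which held the muscle fibre markers, Ucp3 was -1.38 (edgeR adjusted p = 0.946). The difference was below 0 for 32 of 37 members, against 52.5% of all genes. The fish muscle of mouse 1124, the lowest fish muscle in 28 of 37 members, enters that count, and its part was not tested.

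The wider pathway was taken from a list of 92 further genes of ketogenesis, fatty acid uptake, peroxisomes, mitochondrial acyl-CoA enzymes, PPAR partners and other PPARalpha targets, of which 88 were tested in each tissue. At an edgeR unadjusted p under 0.05, 5 of the 88 were higher and 18 lower in liver under restriction (background 6.54% lower). The median log2 difference of the 88 was -0.11. The 20 other PPARalpha targets tested held 0 of the higher and 9 of the lower, at a median of -0.48. By diet these 20 had 0 higher and 5 lower on soy, 2 and 8 on fish, and 0 and 8 on lard. These counts share the control livers, and the lean of the set was not tested. In liver 0 rose and 2 fell under restriction by edgeR's test at an adjusted p under 0.05 (background 0.313% and 0.766%). These were Cidec, a lipid droplet protein and PPAR target (-1.69 ± 0.24, edgeR adjusted p = 0.00194), and Slc16a6, a ketone body exporter of hepatocytes (-0.89 ± 0.16, edgeR adjusted p = 0.00997). Slc16a6 averaged 3.50 ± 0.899 CPM (SD, n = 12) in restricted and 6.65 ± 0.331 CPM (n = 3) in control livers. Cidec is also a marker of white adipocytes. The summed level of 8 such markers, Cidec among them, was 33.7 to 57.9 CPM in control and 23 to 53.8 CPM in restricted livers, and 23.7 to 31.3 and 17.3 to 45.6 CPM without Cidec. Of these markers, Adipoq was at 0 to 0.0686 CPM in control livers and Lep was at 0 in all 3, and the others made up the rest of the sum. The sum of 4 brown adipocyte markers was 46.9 to 94.8 CPM in control and 2.76 to 32.2 CPM in restricted livers. Without the fatty acid elongase Elovl3 that sum was 1.06 to 5.19 and 0.138 to 6.89 CPM, and Ucp1, another of the 4, was at 0 in all 3 control livers. The part of adipocyte RNA in the level of Cidec was not tested. Among the genes of the list, 0 rose and 5 fell without both soy livers that stood apart, including Cidec (-1.74, edgeR adjusted p = 0.00276) and Slc16a6 (-0.79, edgeR adjusted p = 0.00427). For that fit the share of all genes called is not given here.

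By diet in liver, soy had 0 genes of the wider list higher and 3 lower (background 0.399% and 0.766%), the third being the peroxisomal oxidase Acox3 (-0.57 ± 0.13, edgeR adjusted p = 0.0443). Leaving out both soy livers that stood apart, Acox3 (-0.42, edgeR adjusted p = 0.150) and Slc16a6 (-0.88, edgeR adjusted p = 0.0521) no longer passed on soy and Cidec did (-2.22, edgeR adjusted p = 0.0353), and Acox3 did not pass without fish liver 1123 (-0.57, edgeR adjusted p = 0.0560). Fish had 0 higher and 1 lower, Cidec (background 0.0782% and 0.305%; -1.53 ± 0.30, edgeR adjusted p = 0.0429), which did not pass without fish liver 1123 (-1.63, edgeR adjusted p = 0.0953) or with the library number as a term (-1.39, edgeR adjusted p = 0.0951). Lard had 1 higher, Lpin1, a phosphatidate phosphatase and PPAR coactivator (2.25 ± 0.39, edgeR adjusted p = 0.0213), and 1 lower, Cidec (background 0.18% and 0.328%; -1.46 ± 0.31, edgeR adjusted p = 0.0484), and Cidec again did not pass without fish liver 1123 (-1.46, edgeR adjusted p = 0.0557) or with the library number as a term (-1.32, edgeR adjusted p = 0.0820). In the 3 comparisons between fats, 0 of 88 passed in liver. The counts without both soy livers that stood apart were 1 higher and 4 lower on fish, 2 and 2 on lard, 3 and 0 in fish against lard, and 0 in each comparison with soy. For those fits the share of all genes called is not given here.

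In muscle 2 genes of the wider list rose under restriction and 0 fell (background 1.16% and 2.33%). These were Mut, the methylmalonyl-CoA mutase (0.51 ± 0.12, edgeR adjusted p = 0.0464), and Acsl4, an acyl-CoA synthetase (0.38 ± 0.09, edgeR adjusted p = 0.0479). Neither passed without both control muscles that stood apart (Mut 0.25, edgeR adjusted p = 0.363; Acsl4 0.24, edgeR adjusted p = 0.434) or with the library number as a term (Mut 0.53, edgeR adjusted p = 0.0650; Acsl4 0.37, edgeR adjusted p = 0.0816). No listed gene passed in any other muscle diet comparison. Between control tissues 17 of 90 were higher and 57 lower in muscle (background 38.0% and 35.5%), and 18 and 56 without both control muscles that stood apart. The interaction of tissue with fish against lard called 2 of 90 (background 0.0424%), the peroxisomal oxidase Acox2 and the hormone Fgf21, each at an edgeR adjusted p of 0.0275, and 0 of 90 without fish liver 1123. Both rested on few reads in muscle. Acox2 had 11, 31 and 88 exon reads in the fish muscles of mice 1067, 1123 and 1124 and 11, 6, 3 and 3 in the lard muscles, and Fgf21 had 2, 26 and 187 and 0, 0, 2 and 0, with mouse 1124 the highest for both.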

How the data were processed

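Liver and hindlimb muscle RNA of 16 mice was sequenced, and 29 libraries in 8 groups of tissue and diet were used. Per the file headers, the authors deposited per library the total and unique exon read counts, total gene read counts, RPKM and exon length (another measure, in bases) of each gene. The submitters' processing notes name GRCm38 and FastQC, and for the aligner and strand nothing was found (not given in the sources used here). CPM was computed from the deposited total exon read counts. RPKM, which the authors computed, was used only to compare levels of different genes. Of 38124 genes 36345 were matched to a symbol. Libraries within a group differed by more than sampling noise in all 39 pairs.

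Counts were tested with edgeR 4.0.16 in R 4.3.3 (TMM scaling, genes kept by a minimum count of 10, quasi-likelihood F test, Benjamini-Hochberg adjustment over all genes tested, threshold 0.05), with the 4 diets of a tissue in 1 fit (12788 genes in liver, 13104 in muscle) and all 29 libraries in 1 fit for comparisons between tissues (14150 genes). There were 17 comparisons. The procedure was tested on simulated data. In the simulation no library stood apart, so it cannot show how the test behaves with the libraries that stood apart here. Alternatives were DESeq2 1.42.0, its size factors, no count filter, a minimum mean of 5 CPM, unique exon reads, the library number as a term, the animal as a block (limma 3.58.1; correlation within animals 0.0108), each library left out, and the libraries that stood apart left out. Library numbers came from the labels. Standard errors are those of the log2 differences, and errors on mean levels are SD over mice. Depth of 11315231 to 27106865 exon reads limits the precision for members below a few CPM.

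The members, roles, markers and wider pathway list were chosen with earlier results of these data known. Every library's values are given for members that passed in a comparison within a tissue, for Ppara and for the 8 members of smallest p between control tissues. Where no member passed, the pair of smallest p is given. Promoters are shown for members that passed in the same direction; those of Fabp1 and of Hadha and Hadhb, like Vnn1, Ehhadh, Pex11a, Etfb, Pdk4 and Bdh1 where described, were chosen after their values were seen.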

Additional observations from a re-analysis of the deposited data

Results flagged for a closer look

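Of 182 groups of 4 libraries tested for a sample far from the others, 11 held such a library, where chance alone marks about 1 in 20 groups, or 9.1 of these. The lard liver of mouse 1102 gave 4 of the 11. It held the acyl-CoA synthetase gene Acsl1 at 1831 CPM against 952 to 1058 in the other lard livers, Crot at 397 against 235 to 247, Acadm at 463 against 387 to 398 and Decr1, the mitochondrial dienoyl-CoA reductase, at 314 against 228 to 239. In the lard liver of mouse 1101, Oxct1 was low, at 2.77 CPM against 5.12 to 5.36. Bdh1 was high in the soy liver of mouse 1073, at 363 CPM against 303 to 313 in the other soy livers. In fish livers, Fabp3 was at 7.85 CPM in mouse 1123 against 0.208 to 0.914, and Ucp2 at 51.3 CPM in mouse 1124 against 27.5 to 29.5.

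In muscle, the marked values were in the lard and control groups. Fabp1 was at 16.2 CPM in the lard muscle of mouse 1102 against 9.58 to 10.03 in the other lard muscles. Among control muscles, Cpt1a was at 25.8 CPM in mouse 1121 against 17 to 17.6, and Eci2, an enoyl-CoA isomerase, at 89 CPM in mouse 1120 against 64.9 to 68.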

How the results depend on the processing

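DESeq2's Wald test called more members in liver than edgeR's 0: 1 over the restricted diets, 4 on soy, 2 on fish and 3 on lard against control, 1 in fish against lard and 2 each in fish and in lard against soy, with 2.65%, 6.77%, 1.29%, 2.14%, 1.28%, 6.36% and 1.18% of all genes called in the same order. In muscle it called 1 on soy and 2 on fish against control, and 1 for the tissue difference of restriction. Without both soy livers that stood apart, 2 members passed over the restricted diets, 1 on fish and 2 on lard; signs then turned for Etfb (-0.039 on soy, 0.057 in fish and 0.045 in lard against soy), Acaa2 (-0.029 on soy, 0.062 in lard against soy) and Ppara (-0.20 in fish against soy). Without both control muscles that stood apart, 0 passed in muscle, and signs turned for Etfb (0.10 restricted, 0.011 soy), Ppara (-0.15 fish), Acaa1a (0.013 lard) and, between control tissues, Ucp2 (-0.83). With the library number as a term, 0 passed in muscle under restriction. With the animal as a replicate block, since most mice gave both tissues, 32 members again passed between control tissues and 0 in either tissue difference; the block turned Ucp2 to -0.12 and changed no call. Leaving out 1 library gave 0 to 6 members on soy (6 without soy mouse 1065, 3 without soy mouse 1141), 0 to 1 on lard (without lard mouse 1102 or soy mouse 1073), 0 to 3 in fish against soy (3 without soy mouse 1065, 1 without soy mouse 1141), 0 to 2 in lard against soy (without soy mouse 1065 or 1141), 0 to 4 in muscle under restriction, 30 to 33 between control tissues and 0 to 1 in the tissue difference of restriction (without control muscle 1095). The same fits spanned 0 for Ppara on lard in liver (-0.27 to 0.035) and in muscle in fish (-0.60 to 0.40) and lard (-0.35 to 0.65) against soy, for Fabp3 in fish against soy in liver (-0.27 to 2.33) and in the tissue difference of fish against lard (-2.51 to 0.037), and between control tissues for Ucp2 (-0.55 to 0.36) and Acadl (-0.083 to 0.13, with -0.0041, -0.038 and -0.045 without liver lard mouse 1100, liver control mouse 1095 and muscle control mouse 1095). The single values behind these turns were 0.035 (control mouse 1121), 0.40 and 0.65 (soy mouse 1141), 0.051 (lard mouse 1102), -0.27 and 0.037 (fish mouse 1123), and -0.13 and -0.55 (control mice 1095 and 1120). The causes were not tested. For the counts of members in fits that left out libraries, the share of all genes called is not given here. Those counts are therefore not results about the members as a set. The fits without soy mouse 1065 or 1141 kept both soy livers that stood apart. Of 3652 alternative values for 135 results of single genes, 3539 kept direction and side of the threshold, 55 passed newly, 34 no longer passed and 24 turned sign.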
